A study of Homo sapiens with 35 samples.

Results

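The galectin genes LGALS1, LGALS3, LGALS8, LGALS9, LGALS9B and LGALS9C were followed in RPMI-8226 cells, an established human multiple myeloma line, after a pulse of the proteasome inhibitor carfilzomib. They are 6 of the 19665 protein-coding entries in the count table, and all 6 had counts. The genes were chosen by the rise of LGALS9C from day 0 to day 1, so the levels of both days are given for every member without a test, and so are all comparisons of LGALS9C and its near-copy LGALS9B with day 0. The RNA came from cultures collected on day 0 and on days 1, 2, 4, 6, 8 and 10, with 5 subcultures per day and 35 libraries in all. For all later days the exposure was a single carfilzomib dose of 750 nM lasting 1 h, after which the drug was removed and the cells grew on with a change of medium at 48 h intervals. The labels list the pulse for the day 0 libraries as well, whereas the study's methods place that collection ahead of the drug. All subcultures were split from the same expanded culture of the same line, so p-values measure the spread between subcultures. The study's methods name 5 subcultures for RNA, so the same ones may have been sampled on each day. The libraries were treated as independent.

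Galectins are soluble lectins that bind beta-galactosides through a conserved carbohydrate recognition domain and leave the cell without a signal peptide. Galectin-1 (LGALS1) acts as a dimer of single-domain subunits, galectin-3 (LGALS3) carries a single domain with a long tail that lets it oligomerize, and galectin-8 (LGALS8) and galectin-9 (LGALS9) join a pair of domains in tandem. Outside the cell they crosslink glycoproteins such as CD44 and CD45, and inside it galectin-3, galectin-8 and galectin-9 gather on endosomes and lysosomes whose lumenal glycans have become exposed. LGALS9B and LGALS9C are near-copies of LGALS9 on the same chromosome.

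Total estimated counts were 6519392 to 10962890 per library (median 7643975). Levels are given as CPM, the usual depth-scaled unit, here relative to protein-coding counts and scaled by TMM factors. CPM is not adjusted for transcript length, so levels were compared between days and not between genes. All 8 plasma cell markers had counts, among them SDC1 and TNFRSF17, and their summed level was 1880 to 2033 CPM on day 0 and 1308 to 1455 CPM on day 1. The 8 markers of other blood cells summed to 10.0 to 15.6 CPM on day 0 and 5.59 to 8.50 CPM on day 1. On that day 5 of the 8 plasma cell markers (62.5%) and 2 of the 8 others (25.0%) were lower than on day 0. None was higher, at Q ≤ 0.05 in the edgeR test given below. Of all entries, 27.3% were lower and 25.4% higher, so the share of the others was near that of all entries. The part of these shifts in the galectin values was not tested. In bulk RNA, fewer cells holding a transcript and less transcript per cell cannot be told apart.

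In GENCODE release 44 on GRCh38, LGALS9 lies on the plus strand at chr17:27629798-27649560, LGALS9B on the minus strand at chr17:20449395-20467539 and LGALS9C on the plus strand at chr17:18476737-18494945. Their coding sequences were nearly the same. LGALS9B and LGALS9C differed at 5 of 1071 aligned coding bases (99.5% identity), with an identical run of 465 bases. LGALS9 differed from LGALS9B at 39 and from LGALS9C at 44 of 1068 aligned bases (96.3% and 95.9% identity), with no identical run above 96 bases. The stretch below is shown because it held the most differences between LGALS9 and LGALS9C of any 60 coding bases. It covers coding bases 10 to 69 in exons 1 and 2 of 11, with the intron left out, and lies within chr17:27631275-27638292 (LGALS9), chr17:20460414-20467461 (LGALS9B) and chr17:18476864-18483904 (LGALS9C). Capitals mark the positions at which the 3 genes are not the same.
LGALS9: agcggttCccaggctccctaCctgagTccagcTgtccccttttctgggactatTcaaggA
LGALS9B: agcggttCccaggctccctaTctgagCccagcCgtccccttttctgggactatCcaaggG
LGALS9C: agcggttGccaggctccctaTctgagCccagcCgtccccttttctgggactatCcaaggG
LGALS9 differed from LGALS9B at 5 and from LGALS9C at 6 of these bases, and the near-copies differed from each other at 1. Kallisto assigns reads through words of 31 bases, its usual setting. Of the 1881 distinct 31-base words of the protein-coding LGALS9C transcripts, counted on either strand, 82.0% also occurred in transcripts of other genes, mostly LGALS9B (72.7%) and LGALS9 (31.2%), and 339 words were found in no other gene. For LGALS9B, 79.6% of 1718 words were shared and 351 were its own. For LGALS9, 29.3% of 3258 words were shared and 2303 were its own. The division of counts between LGALS9B and LGALS9C is therefore uncertain, and LGALS9 rests on more words of its own. These words were counted in release 44, whereas the study's counts used an earlier GENCODE release, in which the numbers may differ.

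Promoter windows of the 3 genes, from RefSeq on GRCh38.p14, are shown because LGALS9B and LGALS9C moved together on day 1 and LGALS9 did not. Each spans 250 bases before to 50 bases after the RefSeq start, at chr17:27630938-27631237 (plus strand, LGALS9), chr17:20467490-20467789 (minus strand, LGALS9B) and chr17:18476539-18476838 (plus strand, LGALS9C). Capitals mark bases that differ among the 3 aligned windows.
LGALS9: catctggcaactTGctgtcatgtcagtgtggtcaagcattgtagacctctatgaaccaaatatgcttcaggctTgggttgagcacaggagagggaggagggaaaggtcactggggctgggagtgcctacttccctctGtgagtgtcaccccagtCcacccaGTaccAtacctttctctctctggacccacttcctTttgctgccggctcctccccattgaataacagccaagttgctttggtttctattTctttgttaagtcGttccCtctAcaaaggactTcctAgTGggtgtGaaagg
LGALS9B: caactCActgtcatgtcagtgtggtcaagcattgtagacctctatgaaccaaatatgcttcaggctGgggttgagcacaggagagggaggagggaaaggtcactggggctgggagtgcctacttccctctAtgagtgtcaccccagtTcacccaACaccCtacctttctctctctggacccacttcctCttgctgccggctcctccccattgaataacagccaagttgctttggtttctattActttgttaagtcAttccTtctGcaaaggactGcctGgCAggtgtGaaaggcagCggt
LGALS9C: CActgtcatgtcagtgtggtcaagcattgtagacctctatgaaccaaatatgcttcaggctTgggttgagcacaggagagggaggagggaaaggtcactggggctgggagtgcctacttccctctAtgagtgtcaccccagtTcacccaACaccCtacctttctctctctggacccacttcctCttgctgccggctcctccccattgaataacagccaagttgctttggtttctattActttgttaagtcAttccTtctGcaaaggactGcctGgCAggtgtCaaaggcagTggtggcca
The LGALS9B and LGALS9C windows differed at 3 of 295 aligned bases (99% identity). LGALS9 differed from LGALS9B at 17 of 293 bases (94.2%) and from LGALS9C at 17 of 288 bases (94.1%). Each window was searched on both strands for the heat shock element GAANNTTC, the antioxidant response element TGACNNNGC, the AP-1 site TGANTCA, the cAMP response element TGACGTCA, the ATF4 composite element TGATGNAA and the interferon-stimulated response element (GAAA, then 2 bases of any kind, then GAAA). The AP-1 and antioxidant letters can overlap in the same stretch. Among 35116 promoter windows in the table, 6.77%, 13.3%, 7.71%, 1.85%, 3.62% and 3.57% held these letters, in the same order. The LGALS9 window held the interferon-stimulated letters, and the LGALS9B and LGALS9C windows held none of the 6 motifs. The window of LGALS3 and the 3 windows of LGALS8 held none either.

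LGALS9C was close to absent on day 0 and was found in every library on day 1. The 5 day 0 libraries were at 0.422, 0, 0, 0.200 and 0.193 CPM, from 5 counts in all. The day 1 libraries were at 12.1, 12.8, 18.1, 13.7 and 13.2 CPM, from 428 counts. On day 2 they were at 0.718, 0, 0.451, 1.54 and 0.472 CPM, from 22 counts. No library of day 0 or day 2 came near the lowest library of day 1, and the level of day 1 was no longer seen on day 2. The count ratio of day 1 to day 0 was 81.1, with an exact 95% interval of 34.5 to 251.1 that covers counting error only. The ratio of day 1 to day 2 was 24.0 (15.7 to 38.7). The fitted log2 fold change of day 1 from day 0 was 6.20 (SE 0.59), and it depends on the prior count added to so few day 0 counts, being 4.91 with a prior count of 2. With all biotypes of LGALS9C summed, from 38 counts on day 0 and 981 on day 1, it was 4.66.

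LGALS9B followed the same course at fewer counts. Because 79% of its 31-base words also occurred in LGALS9C, how many of these counts are its own is uncertain. On day 0 the libraries were at 0, 0, 0.357, 0.200 and 0 CPM, from 3 counts in all. On day 1 they were at 5.73, 8.03, 5.42, 5.32 and 5.07 CPM, from 183 counts. Day 2 gave 0.287, 0.536, 0, 0.925 and 0.472 CPM, from 16 counts. The day 1 libraries again stood clear of both neighbouring days, and replicate 2 was the highest of them. The count ratio of day 1 to day 0 was 57.8 (19.5 to 282.9), and that of day 1 to day 2 was 14.1 (8.46 to 25.2). Leaving out 1 library of either day moved the fitted log2 fold change, 5.59 (SE 0.77), to between 5.24 and 6.58 for LGALS9B and that of LGALS9C to between 5.88 and 6.97. The highest values came without day 0 replicate 3 for LGALS9B and without day 0 replicate 1 for LGALS9C. With all biotypes of LGALS9B summed, from 8 counts on day 0 and 213 on day 1, the log2 fold change was 4.63.

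**Figure D1:**
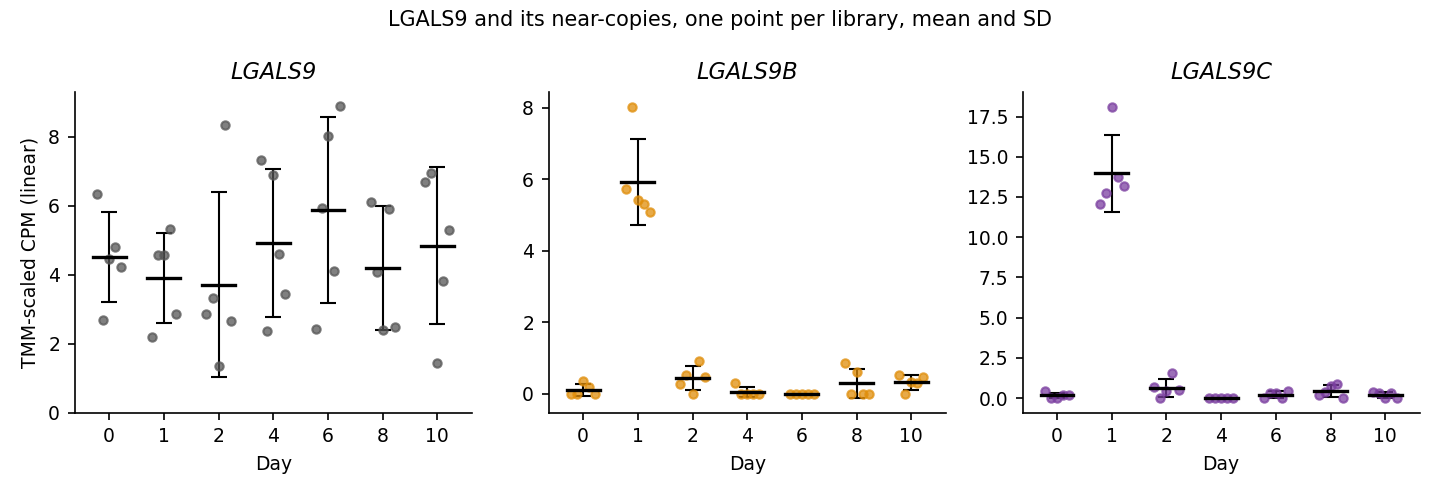
TMM-scaled CPM of LGALS9, LGALS9B and LGALS9C (vertical axes, linear, with a different range in each panel) on each day (horizontal axes), with 1 point per library and black bars for the mean and SD of 5 libraries. LGALS9B and LGALS9C stand at 5.07 to 8.03 and 12.1 to 18.1 CPM on day 1 and below 2 CPM in all other libraries, whereas the ranges of LGALS9 overlap on all days.

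LGALS9, which encodes a ligand of the checkpoint receptor HAVCR2, did not share this rise. Its libraries were at 6.33, 2.70, 4.47, 4.81 and 4.24 CPM on day 0 and at 2.21, 4.56, 4.57, 5.32 and 2.87 CPM on day 1. The 2 days overlapped almost fully, and the log2 fold change was -0.22 (SE 0.40). Means of later days lay between 3.71 ± 2.68 CPM on day 2 and 5.88 ± 2.68 CPM on day 6 (SD, n = 5). None of the comparisons of days 2 to 10 with day 0 passed Q ≤ 0.05 in edgeR's quasi-likelihood test with Benjamini-Hochberg adjustment over all 17999 entries, with adjusted p between 0.51 and 0.923. The standard errors of the log2 fold changes of LGALS9 were 0.38 to 0.40, and differences of that size were not detectable with this spread between libraries. On day 2, for example, single libraries held 12 to 54 counts.

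Because reads may pass between the 3 genes, they were also taken as a family. LGALS9C held 3.55% of their 141 protein-coding counts on day 0 (exact binomial 95% interval 1.16 to 8.08), 58.6% of 730 on day 1 (55.0 to 62.2) and 12.8% of 172 on day 2 (8.19 to 18.7). On day 4 it held 0 of 160 counts, which allows a share of up to 2.28% by the same exact interval. In single libraries the share was 50.3% to 64.5% on day 1. LGALS9B and LGALS9C together took 83.7% of the family's counts on day 1. The summed level of the 3 genes was 4.78 ± 1.46 CPM on day 0, 23.8 ± 3.27 CPM on day 1 and 4.79 ± 3.46 CPM on day 2 (SD, n = 5), and the day 1 libraries (20.0 to 28.1 CPM) stood above those of day 0 (2.70 to 6.75 CPM). This sum does not depend on how the protein-coding counts were divided among the 3 genes. It leaves out their other biotypes, so it does depend on how reads were divided between biotypes.

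The count table splits each symbol by transcript biotype, and the protein-coding entry was not the largest part of LGALS9. Only 15.9% of the counts of LGALS9 over all libraries were in its protein-coding entry, against 97.2% for LGALS1, 88.3% for LGALS3 and 66.9% for LGALS8. The other counts of LGALS9 were in transcripts labelled as nonsense-mediated decay (293 on day 0, 251 on day 1), retained intron (321 and 279) and processed transcript (50 and 8). LGALS9C gained counts in each of its biotypes from day 0 to day 1. They rose from 5 to 428 in protein-coding, from 26 to 303 in retained-intron, from 5 to 186 in nonsense-mediated decay and from 2 to 64 in processed transcripts. With all biotypes summed, LGALS9C held 4.51% of 843 family counts on day 0, 53.0% of 1851 on day 1 (50.7 to 55.3) and 3.84% of 1121 on day 2. The family's level over all biotypes was 29.1 ± 2.73 CPM on day 0, 59.9 ± 4.56 CPM on day 1 and 29.6 ± 1.74 CPM on day 2 (SD, n = 5).

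**Figure D2:**
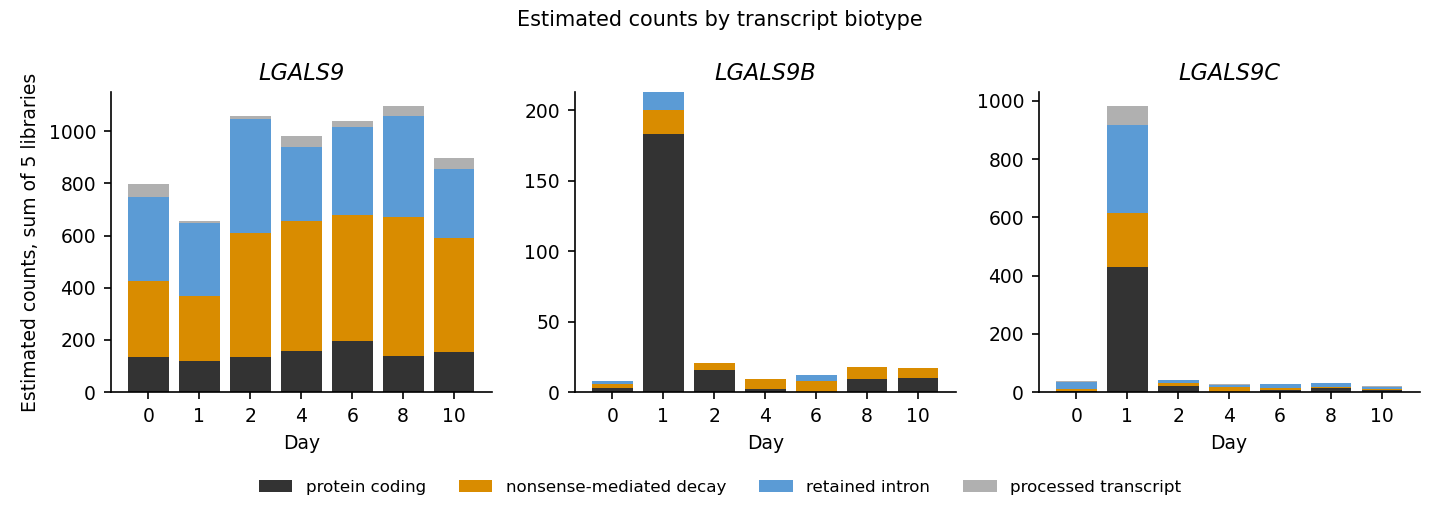
Estimated counts summed over the 5 libraries of a day (vertical axes, linear, with a different range in each panel), stacked by transcript biotype, for LGALS9, LGALS9B and LGALS9C. Day 1 holds 981 counts of LGALS9C over all biotypes against 38 on day 0, while the counts of LGALS9 are mostly outside the protein-coding entry on every day.

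With all biotypes summed, LGALS9 was higher than day 0 on day 8 (log2 fold change 0.35, adjusted p = 0.000966) and on day 4 (0.24, adjusted p = 0.0239), whereas the protein-coding entry gave -0.10 and 0.13 and was not called on either day. With LGALS9B and LGALS9C added to all biotypes, day 8 was still called (0.30, adjusted p = 0.00407) and day 4 was not (0.19, adjusted p = 0.0842). The adjusted p of LGALS9 with all biotypes summed was 0.111 or above on the remaining days from 2 to 10.

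After day 2 the near-copies stayed at a few counts. LGALS9C had 0, 7, 15 and 6 counts on days 4, 6, 8 and 10, and LGALS9B had 2, 0, 9 and 10. No library after day 2 exceeded 0.873 CPM for LGALS9B or 0.846 CPM for LGALS9C, which overlaps day 0 in both genes. The count ratio of day 10 to day 0 was 1.11 (0.281 to 4.58) for LGALS9C and 3.07 (0.790 to 17.4) for LGALS9B, so a difference between these days was not detectable at this depth. LGALS9C fell from day 2 to day 4 (adjusted p = 0.00147, edgeR with Benjamini-Hochberg adjustment). This contrast compared neither day 0 nor day 1, but its spread was estimated over all 35 libraries. The call is therefore not free of day 1, which chose the members. Its 22 counts on day 2 stood against 0 on day 4. Of the 22, 10 came from replicate 4 and 0 from replicate 2, so the groups overlapped. With a floor of 3 counts over the group, day 4 was at least 6.11-fold lower if the 22 counts are taken as exact. With all biotypes summed the log2 fold change of LGALS9C was -0.35 and the call was lost. LGALS9B went from 16 to 2 counts in the same interval (log2 fold change -2.45, SE 1.02, adjusted p = 0.0685) and was called without day 2 replicate 3 (-2.76) or day 4 replicate 1 (-4.55).

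LGALS8 rose on day 1 and then dropped below its starting level. Galectin-8 recruits the autophagy receptor CALCOCO2 to damaged vesicles. Its day 0 libraries were at 15.9, 10.6, 15.2, 12.8 and 14.1 CPM, and its day 1 libraries at 36.3, 34.5, 33.9, 33.6 and 30.9 CPM. The groups did not overlap, and the log2 fold change was 1.30 (SE 0.12), given without a test. On day 2 the libraries were at 7.18, 7.83, 6.42, 8.33 and 6.61 CPM, all below the lowest library of day 0, and the log2 fold change from day 0 was -0.92 (SE 0.13, adjusted p = 1.13e-07). LGALS8 was still below day 0 on day 10, at 8.97, 8.10, 9.85, 8.10 and 7.38 CPM (log2 fold change -0.70, SE 0.13, adjusted p = 3.93e-05). Days 4, 6 and 8 had means of 7.94, 8.86 and 7.43 CPM, log2 fold changes of -0.79, -0.63 and -0.89, and adjusted p between 5.33e-07 and 0.000126. Ordered by level, the days ran 1, 0, 6, 10, 4, 8 and 2, and only day 1 stood apart from its neighbour in that order.

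The LGALS8 locus (chr1:236518000-236552981, plus strand) overlaps HEATR1 and the antisense transcript LGALS8-AS1 on the minus strand, and 27.4% of the 31-base words of LGALS8 also occurred in HEATR1. Whether the counting used strand is not given in the sources used here, so reads of the overlapping genes may not be separable. The protein-coding entry of LGALS8 went from 402 to 1045 counts between days 0 and 1, whereas its retained-intron entry went from 337 to 264. The protein-coding share of LGALS8 was 53.6% on day 0 and 79.6% on day 1, and with all biotypes summed the log2 fold change of day 1 was 0.81.

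LGALS3 kept its level for 1 day and then fell. Galectin-3 is a marker of ruptured lysosomes and also acts in the nucleus and at the cell surface. It was at 21.1, 24.1, 18.4, 17.8 and 23.5 CPM on day 0 and at 23.2, 22.8, 22.0, 23.3 and 23.8 CPM on day 1, where the groups overlapped (log2 fold change 0.13, SE 0.13). On day 2 it was at 10.6, 10.3, 10.1, 8.02 and 8.65 CPM. Every day 2 library lay below every day 0 library, with a log2 fold change of -1.13 (SE 0.14, adjusted p = 4.86e-09). The fall held on days 4, 6, 8 and 10, with log2 fold changes of -1.05, -0.58, -0.67 and -0.87 and adjusted p between 5.5e-08 and 0.000614. On day 10 the libraries were at 10.6, 17.1, 10.8, 9.63 and 9.14 CPM, and replicate 2 stood above the others but still below day 0. Ordered by level, the days ran 1, 0, 6, 8, 10, 4 and 2, with a gap between days 0 and 6 and overlap between all other neighbours.

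LGALS1, the prototype galectin that binds CD45 and CD7 on lymphoid cells, moved less. It was at 275.9, 268.7, 239.3, 292.0 and 270.1 CPM on day 0 and at 162.6, 171.4, 164.6, 195.0 and 171.8 CPM on day 1. The groups did not overlap, and the log2 fold change was -0.64 (SE 0.08), given without a test. It was -0.52 on library sizes without TMM factors. From day 2 the level was nearer to day 0, with means of 207.9 ± 21.5, 212.4 ± 21.1, 227.6 ± 18.9, 239.6 ± 32.7 and 231.7 ± 15.3 CPM in day order from 2 to 10 (SD, n = 5). LGALS1 was below day 0 on day 2 (log2 fold change -0.37, SE 0.08, adjusted p = 9.29e-05), on day 4 (-0.34, adjusted p = 0.000405), on day 6 (-0.24, adjusted p = 0.0123) and on day 10 (-0.22, adjusted p = 0.0292). On day 8 the difference did not pass (-0.17, SE 0.08, adjusted p = 0.0894). These smaller differences turned on single libraries. The day 6 call was lost without day 6 replicate 4 (-0.20). The day 10 call was lost without any of day 0 replicates 1, 2, 4 and 5 and day 10 replicates 1, 3 and 5 (-0.21 to -0.17), and on library sizes without factors (-0.15). Day 8 was called without day 0 replicate 3 or day 8 replicates 2 or 5 (-0.21 to -0.20). In the order of levels, 0, 8, 10, 6, 4, 2 and 1, every pair of neighbouring days overlapped.

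**Figure D3:**
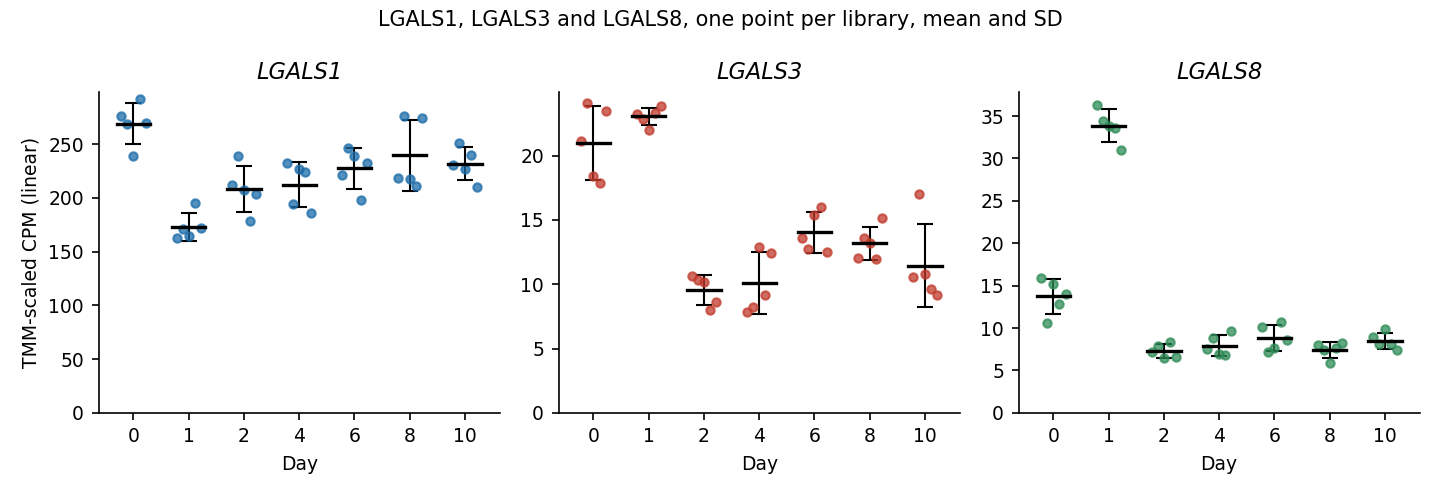
TMM-scaled CPM of LGALS1, LGALS3 and LGALS8 (vertical axes, linear, with a different range in each panel) on each day, with 1 point per library and black bars for the mean and SD of 5 libraries. LGALS8 peaks on day 1 at 30.9 to 36.3 CPM, LGALS3 drops from 22.0 to 23.8 CPM on day 1 to 8.02 to 10.6 CPM on day 2, and LGALS1 is lowest on day 1.

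Of the 4 members tested against day 0, 3 were lower and none was higher on each of days 2, 4, 6 and 10, and 2 were lower on day 8. Among all 17999 entries, day 2 had 23.2% higher and 24.4% lower, day 4 had 19.0% and 20.1%, day 6 had 17.5% and 17.0%, day 8 had 18.2% and 18.6%, and day 10 had 16.1% and 15.8%. On day 1, which chose the members, 25.4% of all entries were higher and 27.3% lower. The day 2 to 10 comparisons share their day 0 libraries, so their calls are not independent of each other. On day 10, LGALS3 was at 0.547 and LGALS8 at 0.617 of its day 0 level in the fit, and LGALS1 at 0.861.

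**Figure D4:**
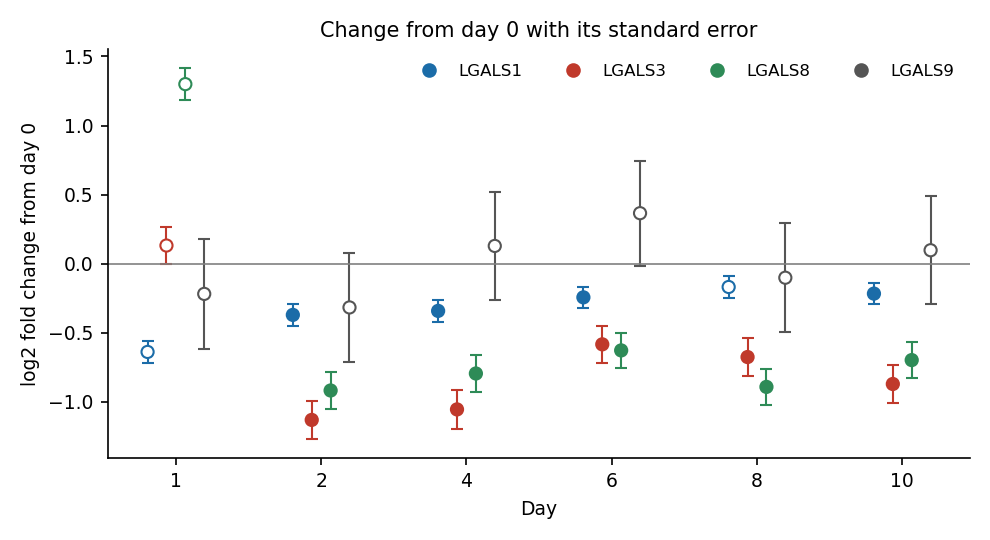
Fitted log2 fold change from day 0 (vertical axis) of LGALS1, LGALS3, LGALS8 and LGALS9 on days 1 to 10 (horizontal axis), with bars for the standard error. Filled circles passed Q ≤ 0.05, open circles did not or, on day 1, were not tested, and LGALS3 and LGALS8 lie between -1.13 and -0.58 on all days from 2 to 10.

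Between consecutive time points from day 2 on, few members moved. In edgeR's test LGALS9C was the only member called from day 2 to day 4, where 30.6% of all entries were called in either direction, and DESeq2 called LGALS9B as well (-2.72). From day 4 to day 6, where 12.1% of entries were called, LGALS3 was the only one, with a log2 fold change of 0.47 (SE 0.14, adjusted p = 0.0246). This call was lost in a fit of those 2 days alone (0.45) and without day 4 replicates 1, 2 or 4 or day 6 replicates 3 or 4 (0.39 to 0.44). No member was called from day 6 to day 8 (2.56% of entries) or from day 8 to day 10 (10.1%) in edgeR's test, nor among the 3 and 5 members to which DESeq2 gave an adjusted p. At an unadjusted p under 0.05, 1 member, LGALS9B, passed from day 6 to day 8, on 0 and 9 counts, and 0 members passed from day 8 to day 10. With all biotypes summed, LGALS9 was lower on day 10 than on day 8 (-0.26, adjusted p = 0.0391), whereas its protein-coding entry gave 0.20.

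The other galectin genes gave little more. Of 10 listed, 6 had a count in any library, and LGALSL, a galectin-related protein without lectin activity, had 1773 of their counts and stayed between 6.80 and 8.46 CPM in daily means. On day 1, 1 of the 6 was higher and 1 lower (16.7% each), against 25.4% and 27.3% of all entries. On days 2 and 10, 1 was higher (16.7%) and none lower. Of all entries, 23.2% were higher and 24.4% lower on day 2, and 16.1% and 15.8% on day 10. Only 2 of the 6 passed filterByExpr, edgeR's filter for low counts. LGALS2, a dimeric galectin, had 11 counts on day 0, 2 on day 1 and 74 on day 2. Its level was 0.373 ± 0.455 CPM on day 0 and 1.90 ± 0.797 CPM on day 2 (SD, n = 5), with a log2 fold change of 2.29 (SE 0.53, adjusted p = 0.000327), and it was still higher on day 10 (1.79, adjusted p = 0.0101). Its lower level on day 1 (-2.23, adjusted p = 0.0319) was no longer called without day 0 replicates 1 or 4 or day 1 replicates 3, 4 or 5. CLC, the Charcot-Leyden crystal galectin, was called higher on day 1 from 8 counts against 0, but not in DESeq2. Without day 0 replicate 1, 2 of the 6 were higher on days 1 and 10, and without day 0 replicate 4 or day 2 replicate 3, 1 was lower on day 2. LGALS7, LGALS7B, LGALS13 and LGALS16 had no counts.

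Of 13 glycoproteins that galectins bind, 3 were higher and 7 lower on day 1 and again on day 2, and 3 were higher and 3 lower on day 10. The list's share of higher genes was 23.1% on all 3 days, near or above the 25.4%, 23.2% and 16.1% of all entries, and its share of lower genes was 53.8%, 53.8% and 23.1% against 27.3%, 24.4% and 15.8%. The list had median log2 fold changes of -0.36, -0.19 and -0.05, against -0.06, -0.04 and -0.01 over all entries. The leukocyte receptors fell most on day 1: PTPRC, the phosphatase CD45, went from 21.2 ± 3.13 to 5.03 ± 0.340 CPM (log2 fold change -2.08, SE 0.14), and SPN, the sialomucin CD43, and CD7, an immunoglobulin-family receptor, had log2 fold changes of -1.96 and -1.70. The adhesion receptor CD44 was lower on days 1 and 2 (-1.31 and -1.10) and was not called on day 10 (-0.02). MUC1, a membrane mucin, was lower on day 1 (-1.31) and higher on days 2 and 10 (0.85 and 1.33). The transferrin receptor TFRC was higher on days 1 and 2 (1.11 and 1.41) and lower on day 10 (-0.32). The integrin ITGB1 and the lysosomal membrane protein LAMP2 were higher on day 1 (0.30 and 0.13), and LAMP2 was lower on days 2 and 10 (-0.58 and -0.34). On library sizes without factors, 5 of the 13 were higher on day 1.

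Of 19 enzymes that build or cap the glycans bound by galectins, 5 were higher and 7 lower on day 1, 5 and 9 on day 2, and 5 and 6 on day 10. On day 1 this was 26.3% higher and 36.8% lower, near the 25.4% and 27.3% of all entries, and the later shares were 26.3% and 47.4% on day 2 and 26.3% and 31.6% on day 10. Median log2 fold changes were -0.05, -0.15 and -0.09. ST6GAL1, which adds the alpha-2,6 sialic acid that blocks galectin-1 binding, went from 49.2 ± 3.41 to 12.2 ± 1.66 CPM on day 1 (log2 fold change -2.01, SE 0.11, adjusted p = 1.02e-19) and was still lower on day 10 (40.0 ± 3.57 CPM, -0.30). MGAT5, which starts an N-glycan branch that is often extended into galectin ligands, went from 137.6 ± 6.95 to 259.1 ± 5.98 CPM on day 1 (0.91, SE 0.05, adjusted p = 1.21e-19) and was still higher on day 10 (0.27). MGAT3, which adds the bisecting residue, was lower on days 1, 2 and 10 (-1.17, -1.11 and -1.11). MGAT2 was lower on the same days (-0.53, -0.52 and -0.69), and MGAT4A was higher on days 1 and 2 (0.58 and 0.63). The sialyltransferase ST3GAL6 was lower on day 1 (-1.06) and higher on day 10 (0.58). GCNT1, which branches O-glycans rather than N-glycans, was higher on days 1, 2 and 10 (0.54, 1.48 and 0.73). Without day 0 replicate 5, 3 of the 19 were higher on day 1.

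Genes of the response to damaged endosomes and lysosomes, the setting in which LGALS3 and LGALS8 act inside the cell, numbered 21. Of these, 12 were higher and 4 lower on day 1, 1 was higher and 11 lower on day 2, and 3 were higher and 5 lower on day 10, with median log2 fold changes of 0.22, -0.23 and -0.05. Higher genes made up 57.1% of the list on day 1, against 25.4% of all entries, and lower genes 52.4% on day 2, against 24.4%. SQSTM1, the autophagy receptor p62, went from 730.9 ± 53.1 CPM on day 0 to 3414 ± 143.6 CPM 1 day later (log2 fold change 2.22) and 345.6 ± 37.4 CPM on day 2 (-1.08). GABARAPL1, which coats autophagosomes, was at 9.97 ± 2.60, 71.5 ± 5.08 and 4.28 ± 2.12 CPM (2.84 and -1.23). Up to day 2 these 2 genes moved as LGALS8 did, up on day 1 and below day 0 on day 2. On day 10 SQSTM1 was lower (-0.593), whereas GABARAPL1 was not called (0.215) and had been higher on day 6 (0.586). VCP, the segregase that clears damaged lysosomes, was higher on days 1 and 2 (1.77 and 0.39), and ATG16L1, which places the autophagy lipidation machinery, on days 1 and 10 (1.80 and 1.78). The deubiquitinase YOD1 was lower on days 1, 2 and 10 (-1.13, -1.09 and -0.85). The kinase ULK1 was lower on days 1 and 2 (-0.58 and -0.21) and higher on day 10 (0.19). MAP1LC3B was lower on days 2 and 10 (-1.17 and -0.82). On library sizes without factors 4 genes of this list were higher on day 2, and without day 0 replicate 2 there were 2.

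Of 26 interferon-inducible genes, a group in which LGALS9 is often placed, 3 were higher and 14 lower on day 1, 1 and 15 on day 2, and 1 and 16 on day 10, with median log2 fold changes of -0.67, -0.77 and -1.15. The lower genes were 53.8%, 57.7% and 61.5% of the list, against 27.3%, 24.4% and 15.8% of all entries. IFI44L went from 3.55 ± 1.41 CPM on day 0 to 0.523 ± 0.579 on day 1 and 0.200 ± 0.226 on day 10 (-2.67 and -4.08). XAF1 was lower on days 1, 2 and 10 (-4.25, -1.51 and -2.17), and OASL on the same days (-0.80, -2.38 and -1.68). BST2 was higher on days 1, 2 and 10 (1.48, 0.68 and 0.53), IFI35 on day 1 (1.52), and IFI44 on day 1 (2.02) but lower on days 2 and 10 (-1.60 and -2.86).

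**Figure D5:**
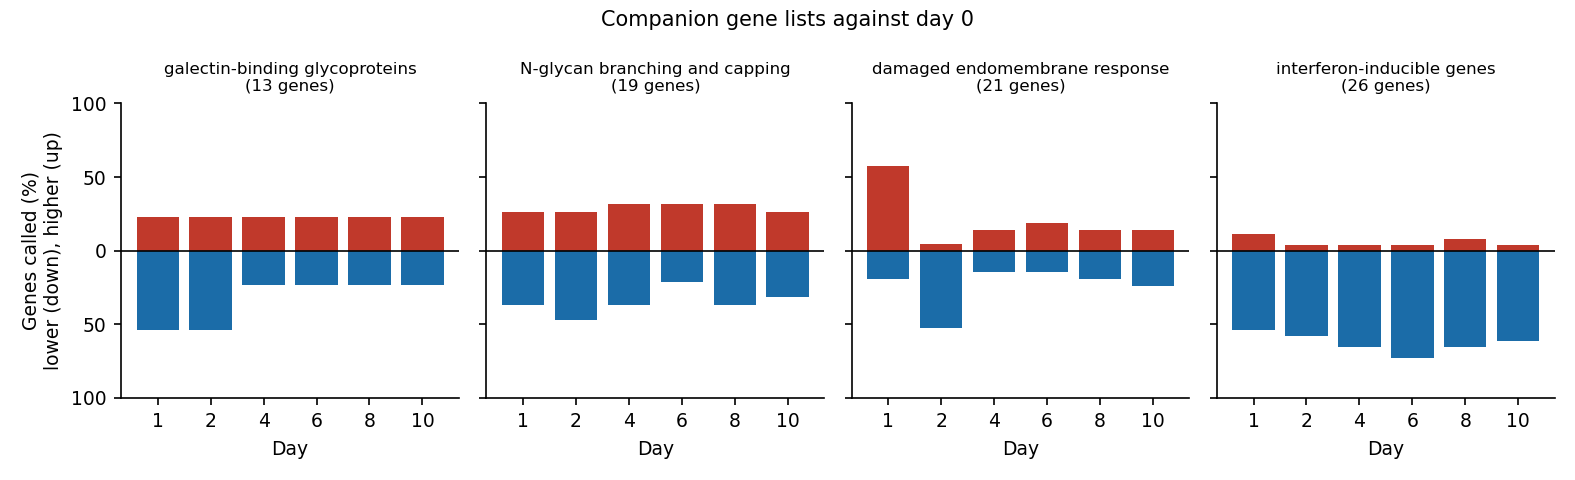
Share of each companion gene list called at Q ≤ 0.05 against day 0 (vertical axis, percent of genes with a count), higher above the zero line and lower beneath it, on days 1 to 10. In the endomembrane list 57.1% of genes are higher on day 1 and 52.4% lower on day 2, and in the interferon list 53.8% to 73.1% are lower on every day.

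Pearson correlation of log2 CPM (prior count 2) over the 35 libraries gave the entries with the most similar course, as a description over libraries that share culture and day. LGALS9C was most like PCYT1A (r = 0.94), an enzyme of phosphatidylcholine synthesis, the proteasome subunit PSMB2 (0.937) and the membrane-binding annexin ANXA2 (0.936). No library outside day 1 exceeded 1.54 CPM for LGALS9C, so these values rest mainly on day 1, which chose the members. PSMB2 had a mean of 105.6 CPM on day 0, 473.5 on day 1 and 139.8 on day 2. LGALS8 was most like FAM219A (0.966), CHPF2 (0.957), which acts in chondroitin synthesis, and the adaptor SHC1 (0.953), all 3 above day 0 on day 1 and below it on day 10 in the fit. LGALS3 was most like the lysosomal sulfatase IDS (0.913), which had means of 225.1, 259.7 and 94.4 CPM on days 0, 1 and 2, followed by SH3PXD2B (0.877) and NFKB2 (0.868). LGALS1 was most like KRTCAP2 (0.922), a subunit of the oligosaccharyltransferase that starts N-glycans, C12orf57 (0.912) and TMED3 (0.907). For LGALS9 the highest values were low, at 0.58 for PPM1L, 0.536 for SDR39U1 and 0.521 for TBCEL.

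Of the 18 nearest tested entries, 3 on each side of LGALS9, LGALS9B and LGALS9C, 3 were higher on day 1, 3 lower and 12 not called, which is 16.7% in each direction against 25.4% and 27.3% of all entries. Beside LGALS9C, SHMT1 was the only one called, with 16.5 ± 1.33 CPM on day 0 and 26.2 ± 2.53 on day 1 (log2 fold change 0.67, SE 0.10, adjusted p = 1e-07). SMCR8 (0.10) and TVP23B (-0.18) were not called, and EVPLL, TBC1D28 and FBXW10 were below 1 CPM on both days. Beside LGALS9B, SPECC1 was higher (0.52), and ULK2 (-1.23) and USP22 (-0.90) were lower. Beside LGALS9, NLK was higher (0.42) and KCNJ18, at 5925186 bases the farthest of the 18, lower (-1.57).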

How the data were processed

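RNA of RPMI-8226 cells was sequenced in 35 libraries, 5 subcultures on each of 7 days, grouped by the time point in the labels. The authors deposited estimated counts per gene symbol and transcript biotype (84647 rows), made with Kallisto 0.44.0 against GENCODE transcripts of GRCh38.p12 and summarized with tximport. They are whole numbers without scaling for depth, and near-identical transcripts compete for the same reads in such estimates. Whether strand was used is not given in the sources used here.

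The 17999 of 19665 protein-coding entries that had at least 1 count were tested with edgeR 4.0.16 in R 4.3.3 (glmQLFit and glmQLFTest, TMM, 1 coefficient per day without covariates, prior count 0.125), with Benjamini-Hochberg adjustment over all entries and a threshold of Q ≤ 0.05. The fit was tested on simulated data with changes placed only on day 1 and only in entries with many day 0 counts. That does not cover LGALS9B and LGALS9C or the comparisons between later days. All 6 members also passed filterByExpr (12340 entries), LGALS9B and LGALS9C only through their libraries of day 1, the day that chose the members. Standard errors are the log2 fold change divided by the square root of F. Intervals of shares are exact binomial, those of count ratios exact for Poisson counts, and both, like the floor of 3 counts, cover counting error only. Alternatives were DESeq2 1.42.0, other scaling factors, a filter, fits of the compared days alone, sums over biotypes or paralogs, and leaving out each library.

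The members and gene lists were chosen with earlier results of these data known. The genes named are the members, the 2 called list members with the largest rise and the 2 with the largest fall on days 1, 2 and 10, the 3 entries most alike and the 3 nearest tested neighbours on each side. LGALSL, CLC and the galectins without counts were named after their values were seen. The replicate numbers were not used as pairs, and whether a number names the same subculture on each day is not given in the labels.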

Additional observations from a re-analysis of the deposited data

Results flagged for a closer look

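In 3 of 42 sets of 5 libraries, 1 library stood far from the other 4 (Dixon's ratio, which chance alone exceeds in about 1 of 20 sets). LGALS3 on day 10 was at 17.1 CPM in replicate 2, from 120 counts, and at 9.14 to 10.8 CPM in the other libraries. LGALS9B on day 1 was at 8.03 CPM in replicate 2, from 51 counts, and at 5.07 to 5.73 CPM in the others. LGALS9B on day 4 was at 0.319 CPM in replicate 1, from 2 counts, and at 0 in the others.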

How the results depend on the processing

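Of 839 values of single members under alternative settings, 803 kept their side of the threshold or, where no test applied, moved by less than 1 SD. A called value that changed direction was not counted among them, but values not called in either setting could change sign. LGALS9 on day 8, for example, went from -0.10 to 0.08 without day 0 replicate 1. Of 480 counts of gene lists, 463 stayed within 1.5 times. On library sizes without factors, LGALS1 was at -0.52 on day 1 and, no longer called, -0.15 on day 10, and 5 glycoproteins were higher on day 1 and 4 endomembrane genes on day 2. In fits of the compared days alone, LGALS3 from day 4 to day 6 (0.45) lost its call, as did the 1 other galectin lower on day 1 (0). In DESeq2, LGALS9B from day 2 to day 4 was called (-2.72). Of the other galectins, none was higher on day 1 in DESeq2 (0) or after filterByExpr (0), and 1 was lower on day 2 after filterByExpr. A prior count of 2 gave 3.92 for LGALS9B and 4.91 for LGALS9C on day 1.

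With all biotypes summed, day 1 gave 0.81 for LGALS8, 4.63 for LGALS9B and 4.66 for LGALS9C, and LGALS9C from day 2 to day 4 lost its call (-0.35). LGALS9 was then called on day 4 (0.24), and it turned direction and was called on day 8 (0.35, and 0.30 with the paralogs added) and from day 8 to day 10 (-0.26). LGALS9 with its paralogs was at 2.30 on day 1, and at 1.12 over all biotypes. LGALS9C then held 53.0% of family counts on day 1 and 3.84% on day 2. The sums over all biotypes on day 1 and between consecutive days were added after the data were seen. The cause of these shifts was not tested.

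Without 1 library at a time, LGALS1 ranged from -0.68 to -0.62 on day 1, -0.28 to -0.20 on day 6, -0.21 to -0.11 on day 8 and -0.26 to -0.17 on day 10. LGALS3 from day 4 to day 6 ranged from 0.39 to 0.58, LGALS9B on day 1 from 5.24 to 6.58 and from day 2 to day 4 from -4.55 to -2.04, and LGALS9C on day 1 from 5.88 to 6.97. Counts of other galectins ranged from 1 to 2 higher and 0 to 1 lower on day 1, 0 to 1 lower on day 2 and 1 to 2 higher on day 10. Enzymes of N-glycans higher on day 1 ranged from 3 to 5, and endomembrane genes higher on day 2 from 1 to 2.

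Deviations of libraries with the same replicate number correlated between -0.121 and 0.136 (median 0.00226 over 105 pairs), so the numbers were not treated as pairs. These correlations do not show whether the same subcultures were sampled again on later days. With the replicate block, 9314 entries were called on day 1 against 9480 without it, LGALS9C from day 2 to day 4 was at -4.98 and no member or list changed its call. The depth leaves LGALS9B and LGALS9C with 0 to 10 counts per library outside day 1, and differences of a few counts among those days were not detectable.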
